A study of Mus musculus with 4 samples.

Results

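The circular RNAs (circRNAs) of 4 genes of the elastic fibre were examined in developing mouse lung: Eln, Fbn1, Fbn2 and Ltbp1. All circRNAs that the deposited lists assign to these host genes were taken, whatever their level, which gave 36 of the 13499 distinct circRNAs in the series. Eln had 13 of them, Fbn1 3, Fbn2 8 and Ltbp1 12. Total RNA came from whole lung of C57BL/6 mice, with 1 library a stage. The pseudoglandular library was from embryonic day 14.5, the canalicular one from day 16.5, the terminal sac one from day 18.5 and the alveolar one from newborn day 7.5. The labels give no treatment or genetic change, and the number of animals per library is not stated. Since no stage was repeated, no p-value is given, and every difference below is between libraries. Intervals are 95% intervals for counting error only, and PCR copies among the reads would make them too narrow.

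Elastic fibres give the lung its recoil. Their core is elastin, the cross-linked product of Eln, laid on a scaffold of microfibrils built from the fibrillins, the products of Fbn1 and Fbn2. Latent TGF-beta binding protein 1, the product of Ltbp1, attaches the inactive form of the growth factor TGF-beta to this matrix. In the alveolar stage elastin is laid down at the tips of the septa that divide the air sacs. In elastin, exons for hydrophobic stretches alternate with exons for lysine-rich cross-linking stretches that resemble one another. The fibrillins, and in part the latent TGF-beta binding proteins, are built of repeated EGF-like domains. A circRNA forms when the end of an exon (the donor) is joined back to the start of the same or an earlier exon (the acceptor), and is recognised by junction reads that cross this back-splice join.

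The joins that held most of the reads are printed first, since their letters matter for what follows. Each line gives 30 bases on either side of the join, 5′ to 3′ on the sense strand, from GENCODE M21 transcripts on mm10. In the back-splice lines capitals mark bases at which the 2 joined ends are the same sequence, so that the join could be placed at any point of that direct repeat without changing the letters. In the 2 linear Eln lines capitals mark the bases they share with the repeat of exons 17 and 22. Eln lies at chr5:134702593-134747323 on the minus strand, and exons are numbered along a transcript of 37 exons. The first line is the circle of exons 17 to 22 (chr5:134715684-134719222), the next 2 are the linear joins of the same 2 exons to their ordinary neighbours, and the last 2 are the circles of exons 19 to 22 (chr5:134715684-134718119) and 8 to 11 (chr5:134726468-134729405), whose acceptors lie inside an exon.
Eln exon 22 to exon 17: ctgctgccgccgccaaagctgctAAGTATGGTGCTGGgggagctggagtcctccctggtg
Eln linear exon 16 to exon 17: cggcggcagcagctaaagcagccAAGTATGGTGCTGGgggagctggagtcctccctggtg
Eln linear exon 22 to exon 23: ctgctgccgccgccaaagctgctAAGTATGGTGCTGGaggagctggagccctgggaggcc
Eln exon 22 to inside exon 19: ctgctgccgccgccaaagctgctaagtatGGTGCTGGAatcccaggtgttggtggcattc
Eln exon 11 to inside exon 8: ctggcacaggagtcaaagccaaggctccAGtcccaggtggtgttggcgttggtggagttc

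The repeat at the join of exons 17 and 22 was 14 bases long, and the same 14 bases stood at both linear joins. The circle's reads could therefore be placed at 15 positions. Over the last 30 bases, the end of exon 16 matched the end of exon 22 at 23 positions, and over the first 30 the start of exon 17 matched the start of exon 23 at 22. Each of these counts includes 7 bases of the repeat. The start of exon 17 matched the start of the circle inside exon 19 at 13 of 30. In Fbn1 the starts of exons 48 and 44 each matched that of exon 50 at 17 of 30. How often other exons of these genes match was not tested. The join inside exon 19 had a repeat of 9 bases and that inside exon 8 a repeat of 2.

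The joins of Fbn1 and Ltbp1 below are shown for the same reason. Fbn1 lies at chr2:125300594-125507993 on the minus strand (66 exons), and its circles of exons 48 to 49 (chr2:125328093-125329119) and 44 to 49 (chr2:125328093-125338558) shared the donor at the end of exon 49. Ltbp1 lies at chr17:75005568-75392512 on the plus strand (35 exons), and its circle of exons 6 to 7 (chr17:75225156-75227241) was the only member circle listed in all 4 libraries.
Fbn1 exon 49 to exon 48: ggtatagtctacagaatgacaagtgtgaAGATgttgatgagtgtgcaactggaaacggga
Fbn1 exon 49 to exon 44: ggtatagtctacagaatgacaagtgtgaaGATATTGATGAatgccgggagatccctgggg
Ltbp1 exon 7 to exon 6: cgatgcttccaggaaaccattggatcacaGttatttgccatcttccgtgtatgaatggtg
The circle of Fbn1 exons 48 and 49 was 249 bases long and was made of exon 48 in lower case and the 120 bases of exon 49 in capitals.
Fbn1 circle of exons 48 and 49: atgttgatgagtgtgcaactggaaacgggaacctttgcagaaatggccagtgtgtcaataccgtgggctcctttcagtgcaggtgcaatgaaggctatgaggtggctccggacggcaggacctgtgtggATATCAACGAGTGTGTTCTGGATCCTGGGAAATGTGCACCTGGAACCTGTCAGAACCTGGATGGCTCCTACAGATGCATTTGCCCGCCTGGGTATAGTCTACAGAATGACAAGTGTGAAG

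The libraries listed 4599, 4947, 5564 and 4474 circRNAs in order of stage, with 25983, 31218, 36156 and 28332 junction reads. Member circles numbered 14, 8, 7 and 14 and held 91, 34, 86 and 1738 of those reads, which were 0.350%, 0.109%, 0.238% and 6.13%. Every listed circRNA had 2 or more junction reads, and a gene listed in no circle is given the limit of 3 reads. In whole lung, fewer cells of a type and less RNA per cell cannot be told apart. Cell type markers, as junction reads of their own circRNAs, also differed between libraries. Lung epithelial markers (4 of 7 listed) had 0, 6, 440 and 766 reads in order of stage, those of lung mesenchyme (5 of 7 listed) 41, 16, 22 and 213, and those of smooth muscle and pericytes (4 of 7 listed) 29, 31, 70 and 126. Sftpc held 376 of the 440 terminal sac and 521 of the 766 alveolar epithelial reads. Lamp3 had 0, 6, 64 and 110 reads in order of stage, and Nkx2-1, Ager and Hopx 0 in each library. Sftpb and Slc34a2 were listed in the alveolar library only (108 and 27 reads). In that library Col1a2 held 171 of the 213 mesenchymal reads and Trpc6 108 of the 126 of smooth muscle and pericytes. Col1a1 had 4, 3, 3 and 4 reads in order of stage, Tbx4 2, 8, 6 and 0, and Tcf21, Foxf1, Acta2, Tagln and Cnn1 0 in each library. Endothelial markers (4 of 4) had 6, 19, 24 and 56 reads, leucocyte markers (4 of 4) 6, 31, 29 and 11, heart and striated muscle markers (2 of 5) 73, 11, 8 and 12, mesothelial markers (1 of 3) 0, 2, 0 and 0, and cartilage and red cell markers 0 in each library. Pecam1 held 39 of the 56 alveolar endothelial reads, and Ttn 62 of the 73 pseudoglandular reads of heart and striated muscle. The part of all these markers in the results on the 4 genes was not tested.

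**Figure D1:**
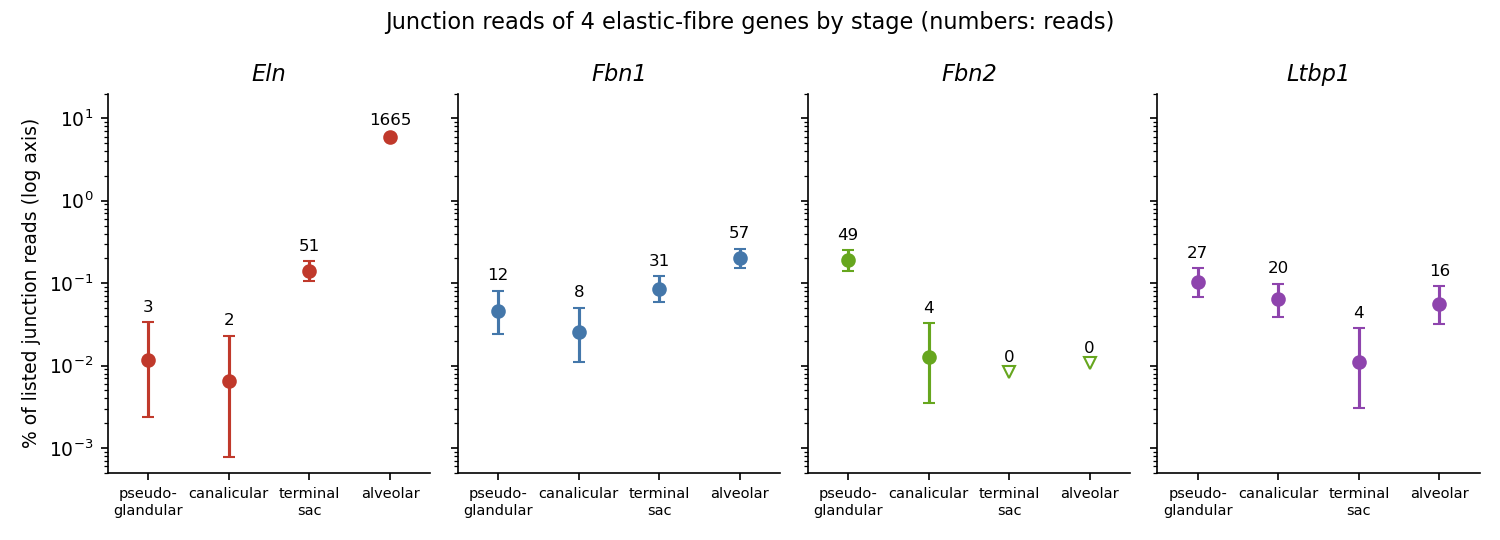
Share of each library's listed junction reads (percent, log axis) held by the circles of Eln, Fbn1, Fbn2 and Ltbp1 in each stage's library, with exact 95% intervals. Triangles stand at the limit of 3 reads where no circle was listed: Eln reached 5.88% in the alveolar library, while Fbn2 had no listed circle from the terminal sac library on.

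Summed over circles, the 4 genes changed in different ways. For a comparison, each gene's share of listed junction reads in the later library was divided by that in the earlier one. A gene or circle with 10 or more reads in the pair was called higher or lower when this ratio was at least 2-fold and its interval excluded 1. Between the alveolar and pseudoglandular libraries 3 of the 4 genes were called, Eln and Fbn1 higher and Fbn2 lower, where 29.6% of all 1084 host genes compared were called (12.9% higher and 16.7% lower). The balance of all hosts turned with the scaling, with 165 higher and 154 lower by the median of ratios and 171 and 150 by non-junction reads, against 140 and 181 here, while the calls for Eln, Fbn1 and Fbn2 held. Ltbp1 was not called. Fbn2 had 0 alveolar reads and Eln 3 pseudoglandular reads, so each reached the minimum of 10 through 1 library only. They could hardly have been measured without differing. The 4 genes were chosen with earlier results of these data known, so their count of calls is a description only. Of the 36 circles, 6 had enough reads for that comparison and 5 were called, 2 higher and 3 lower, against 29.6% of all 933 circRNAs compared (12.2% higher and 17.4% lower). Of those 6 circles all but that of Ltbp1 exons 6 to 7 had reads in only 1 library of the pair, so they could hardly have been measured without differing.

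Eln encodes tropoelastin, the soluble monomer of the fibre core. Its circles had 3, 2, 51 and 1665 reads in order of stage. As shares these were 0.0115% (interval 0.00238 to 0.0337), 0.00641% (0.000776 to 0.0231), 0.141% (0.105 to 0.185) and 5.88% (5.61 to 6.16). The alveolar library was 41.7-fold higher than the terminal sac library (interval 31.5 to 56.2) and 509-fold higher than the pseudoglandular (174 to 2471). The terminal sac library was 22-fold higher than the canalicular (5.79 to 187). The pseudoglandular and canalicular libraries had too few reads to compare.

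In the alveolar library 1 circle, that of exons 17 to 22, held 1646 of the 1665 Eln reads, and no circRNA in that library had more. It was not listed in the other 3 libraries. Its share was at least 700-fold higher than in the terminal sac library and at least 503-fold higher than in the pseudoglandular, with an unlisted circle set to 3 reads per library. Without it, Eln had 19 reads in the alveolar library and 51 in the terminal sac, a share 1.98-fold lower in the alveolar library (interval 1.15 to 3.55), below the threshold for a call. Against the 3 pseudoglandular reads, the 19 alveolar reads gave a share 6.17-fold higher (1.82 to 32.5).

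Non-junction reads are those that CIRI, the caller whose columns the lists show, counts as crossing the same ends linearly. The junction ratio is 2 times the junction reads over that number plus the non-junction reads. The circle of exons 17 to 22 had 3848 non-junction reads and a ratio of 0.461, and 124 of the 4474 alveolar circRNAs (2.77%) had a ratio at least as high. All other Eln listings had ratios of 0.019 or less, with 1052 to 23179 non-junction reads.

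Per junction read, the number of distinct alignment patterns was low for this circle. CIRI writes how many patterns were clipped at the start (SM), at the end (MS) or at both (SMS), and they were 39, 25 and 1 for the 1646 reads. Their sum of 65 was 3.95 patterns per 100 reads. The 84 listings of 100 or more reads in the series had a median of 58.4 per 100 and a 5th percentile of 5.42. The median sum of these listings was 88 patterns. Patterns per read fell as reads rose, and the median was 100 per 100 at 10 to 14 reads. The value per 100 is thus partly set by the 1646 reads. By the rule for few patterns given below, which caps reads at 100, this circle did not have few. Within each library the read names of member circles were all distinct, so no read was counted under more than 1 of them. Distinct names cannot show whether reads are PCR copies.

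**Figure D2:**
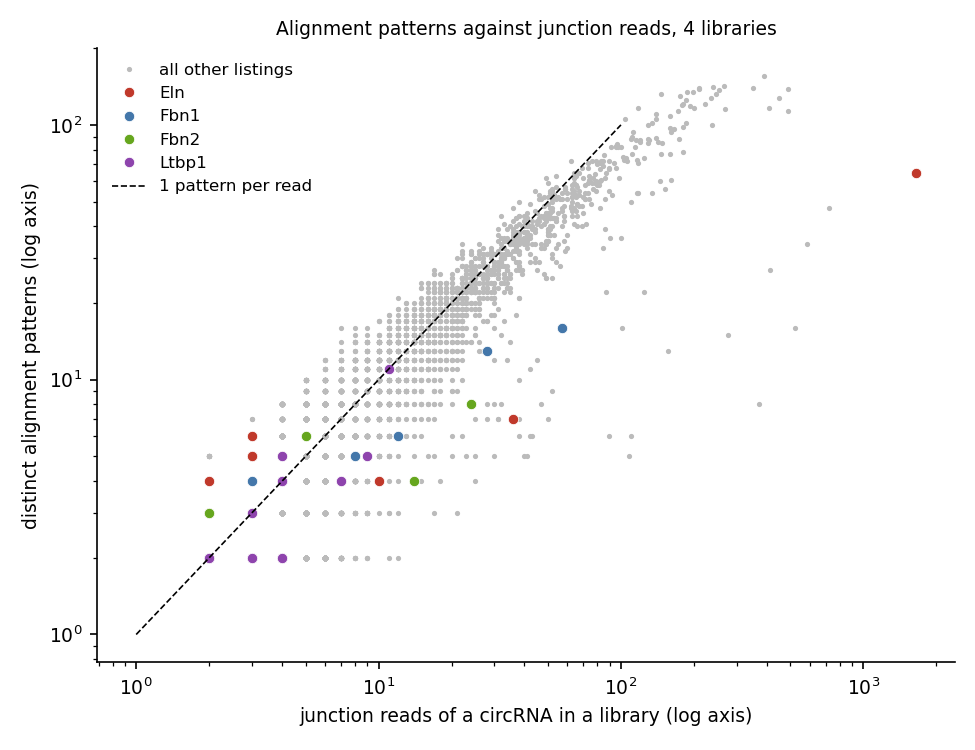
Alignment patterns (the sum of SM, MS and SMS) against junction reads for each listing of a member circle, coloured by gene on log axes, with all other listings of the series in grey and a dashed line at 1 pattern per read. The Eln circle of exons 17 to 22 had 65 patterns for 1646 reads, and the Eln circle of exons 19 to 22 had 7 for 36 in the terminal sac library.

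In the terminal sac library the leading Eln circle was another one with the same donor. The circle of exons 19 to 22, which starts 48 bases inside exon 19, had 3 reads in the alveolar library and 36 in the terminal sac, and was not listed in the other 2. Its share was 9.40-fold lower in the alveolar library than in the terminal sac (interval 2.97 to 47.7), and at least 10.4-fold higher in the terminal sac library than in the canalicular. Its non-junction reads were 5851 in the alveolar and 3680 in the terminal sac library, and its ratios were 0.001 and 0.019. Per non-junction read the alveolar library had 0.0603 times the junction reads of the terminal sac (interval 0.0201 to 0.181). Its reads had 5, 1 and 1 patterns (SM, MS, SMS) in the terminal sac library.

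The donor at the end of exon 22 thus held 1649 reads in the alveolar library and 36 in the terminal sac, and no circle with it was listed earlier. In the terminal sac library the circle of exons 8 to 11 had 10 reads, 7159 non-junction reads, a ratio of 0.003 and 3, 1 and 0 patterns, and it was not listed elsewhere. That difference was not called in either step it entered.

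The other 10 Eln circles had 2 to 4 reads, each in 1 library. Of all 13, 3 had both ends at exon boundaries (exons 17 to 22, 17 to 23 and 14 to 16) and 5 had an end in the 3′ UTR in exon 37. The 2 circles within exon 37 had 2 reads against 16483 non-junction reads (canalicular) and 3 against 23179 (terminal sac). In the alveolar library the 2 circles of exons 34 to 37 had 2 and 4 reads, with 9452 and 11904 non-junction reads, and that of exons 33 to 37 had 3, with 10972. The circles of exons 17 to 23, 8 to 19 and 14 to 16 had 2, 2 and 3 alveolar reads, with ratios of 0.001, 0.000 and 0.000 as deposited. That of exons 31 to 34 had 3 pseudoglandular reads (ratio 0.006) and that of exons 10 to 25 had 2 terminal sac reads (0.001).

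**Figure D3:**
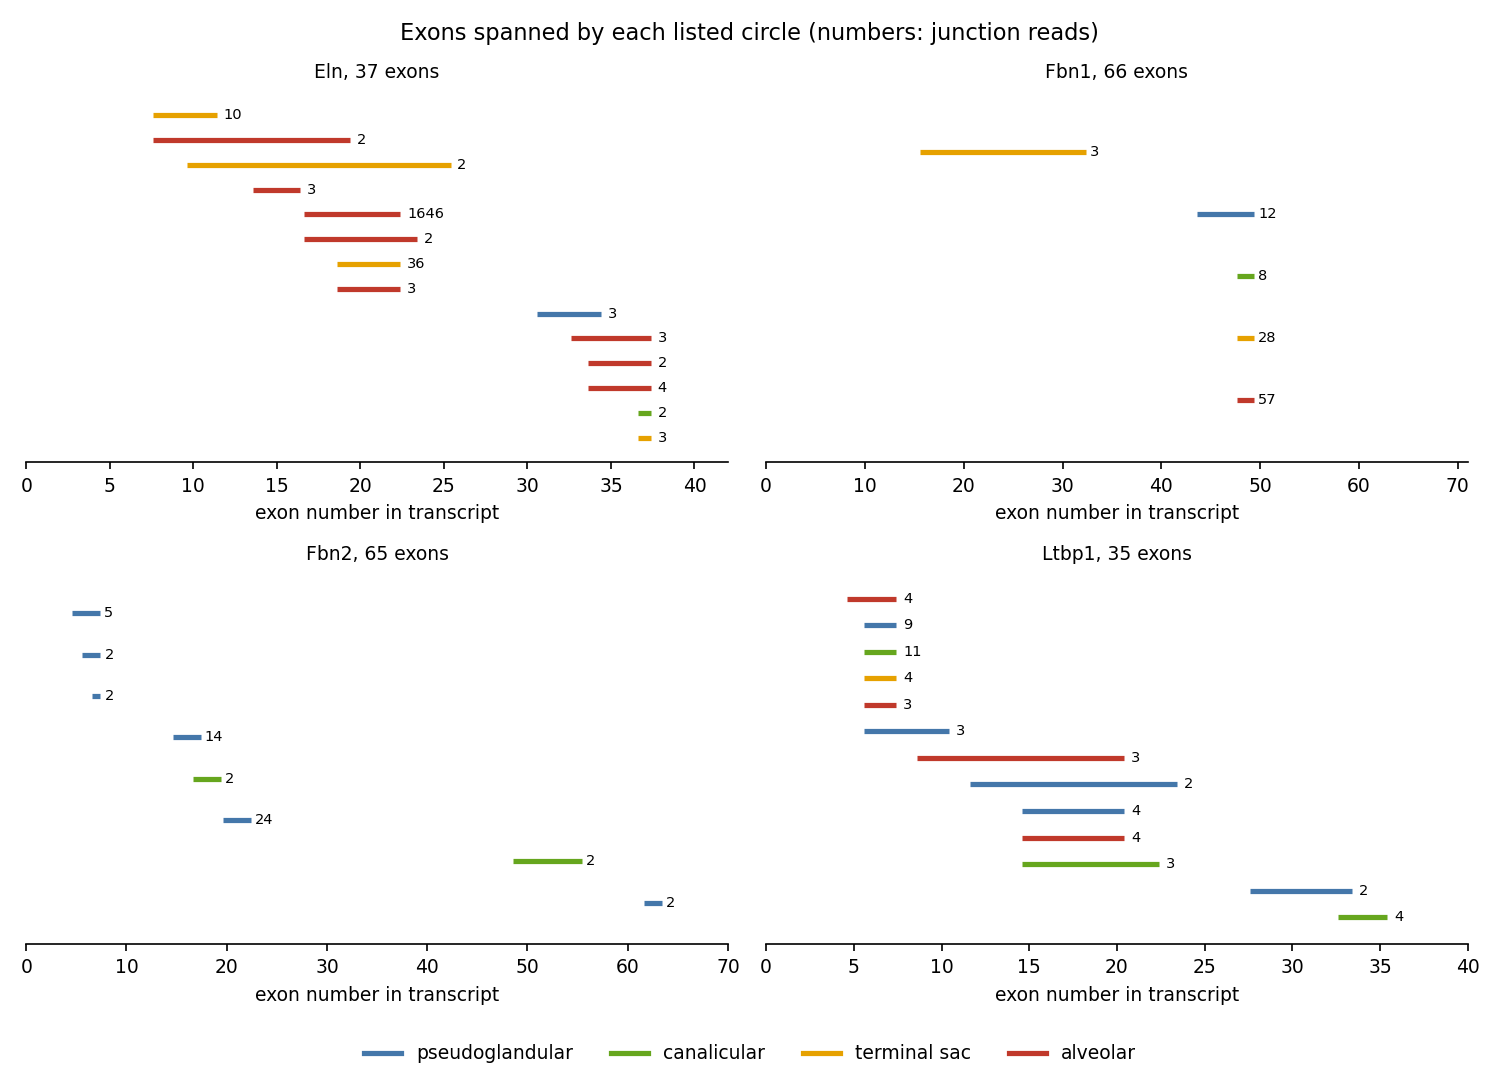
Exon spans of the member circles with both ends in exons, drawn by exon number along each gene, with a row for each circle and library in the colour of the stage and without the 3 Ltbp1 circles of the intron type. Junction reads stand beside each bar. The Eln circle of exons 17 to 22 has 1646 reads in the alveolar library, and Fbn2 bars appear only for the 2 earliest stages.

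Fbn1 encodes fibrillin-1, the main component of microfibrils. Its circles had 12, 8, 31 and 57 reads in order of stage, or 0.0462% (interval 0.0239 to 0.0807), 0.0256% (0.0111 to 0.0505), 0.0857% (0.0583 to 0.122) and 0.201% (0.152 to 0.261). The alveolar library was 4.36-fold higher than the pseudoglandular (2.31 to 8.92) and 2.35-fold higher than the terminal sac (1.49 to 3.76), and the terminal sac was 3.35-fold higher than the canalicular (1.5 to 8.42). The canalicular library was 1.80-fold lower than the pseudoglandular, with an interval of 0.677 to 5.08 that included 1.

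The acceptor listed with the exon 49 donor differed between libraries, though a join with fewer than 2 reads would not be listed. The join to exon 44 had 11 repeated bases, and that to exon 48 few patterns (rule below) in the alveolar library. In the pseudoglandular library all 12 Fbn1 reads joined exon 49 to exon 44 (856 non-junction reads, ratio 0.027, 5, 1 and 0 patterns), and that circle was not listed later. The circle of exons 48 to 49 was not listed there and had 8 canalicular, 28 terminal sac and 57 alveolar reads. Its ratios were 0.014, 0.048 and 0.050, with 1100, 1113 and 2164 non-junction reads. In the alveolar library its share was at least 17.4-fold higher than in the pseudoglandular, and that of the circle of exons 44 to 49 at least 4.36-fold lower.

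For the circle of exons 48 to 49, junction reads per non-junction read were 3.31 times as many in the terminal sac as in the canalicular library (interval 1.53 to 7.16). Between the alveolar and terminal sac libraries that odds ratio was 1.04 (0.659 to 1.64), while the share of listed reads was 2.60-fold higher in the alveolar library (1.63 to 4.24). Its patterns summed to 5 for 8 reads, 13 for 28 and 16 for 57. The remaining Fbn1 circle, of exons 16 to 32, had 3 terminal sac reads (ratio 0.005).

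**Figure D4:**
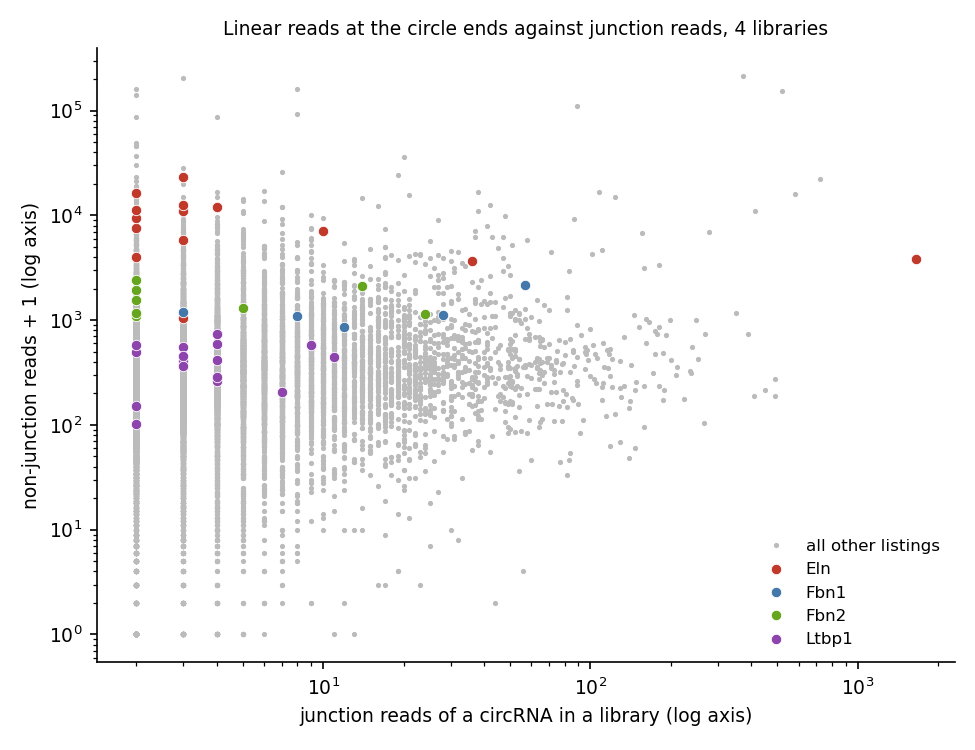
Non-junction reads plus 1 (vertical, log axis) against junction reads (horizontal, log axis) for each listing of a member circle, coloured by gene, with all other listings in grey. The Eln circle of exons 17 to 22 stands at 1646 junction and 3848 non-junction reads, and the Eln circles within exon 37 stand at 16483 and 23179 non-junction reads with 2 and 3 junction reads.

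Fbn2 encodes fibrillin-2, a microfibril component best known from embryonic tissue. It lies at chr18:58008623-58210487 on the minus strand (65 exons). Its circles had 49, 4, 0 and 0 reads in order of stage. The share was 0.189% at the pseudoglandular stage (interval 0.140 to 0.249) and 0.0128% at the canalicular (0.00349 to 0.0328), and the limit of 3 reads was 0.0083% at the terminal sac stage and 0.0106% at the alveolar. The canalicular library was 14.7-fold lower than the pseudoglandular (5.40 to 56.2), and the alveolar at least 17.8-fold lower. In the step from pseudoglandular to canalicular Fbn2 was the 1 gene called of the 3 with enough reads, where 20.1% of all host genes were called (8.87% higher and 11.3% lower). That call was lost without the Fbn2 circles that have 6 or more repeated bases at their ends or few patterns, which left 4 canalicular and 9 pseudoglandular reads (2.70-fold lower, 0.754 to 12).

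The circles of exons 20 to 22 and 15 to 17 made up 24 and 14 of the 49 pseudoglandular reads, with 1156 and 2101 non-junction reads and ratios of 0.040 and 0.013. They had 0, 7 and 1 and 2, 1 and 1 patterns. Neither was listed in another library, and in the alveolar library they were at least 8.72-fold and 5.09-fold lower. With the Fbn1 circle of exons 44 to 49 they were the 3 circles called of the 4 measured between the canalicular and pseudoglandular libraries. Of all circRNAs 18% were called (8.16% higher and 9.83% lower). These 3 circles had no canalicular reads, so they could hardly have been measured without differing.

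A further 3 Fbn2 circles shared the donor at the end of exon 7 and held 9 reads, all pseudoglandular. They began at exons 5, 6 and 7 and had 5, 2 and 2 reads with ratios of 0.008, 0.003 and 0.004. The circle of exons 62 to 63 had 2 pseudoglandular reads (ratio 0.002). In the canalicular library the circles of exons 49 to 55 and 17 to 19 had 2 reads each, with 2443 and 1571 non-junction reads and ratios of 0.002 and 0.003. Linear reads across Fbn2 ends were therefore counted in the canalicular library, but the lists give none for ends at which no circle was called.

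Ltbp1 circles had 27, 20, 4 and 16 reads in order of stage, or 0.104% (interval 0.0685 to 0.151), 0.0641% (0.0391 to 0.0989), 0.0111% (0.00301 to 0.0283) and 0.0565% (0.0323 to 0.0917). The terminal sac library was 5.79-fold lower than the canalicular (1.94 to 23.3), and the alveolar was 5.10-fold higher than the terminal sac (1.65 to 21). All 4 terminal sac reads were of the circle of exons 6 to 7, which had 11 canalicular and 3 alveolar reads. The other canalicular and alveolar circles had 2 to 4 reads each and were not listed in the terminal sac library. Both calls thus rested in part on circles near the lowest listed count of 2 reads. The alveolar library was 1.84-fold lower than the pseudoglandular and the canalicular 1.62-fold lower, with intervals that included 1 (0.956 to 3.66 and 0.876 to 3.05). With Eln and Fbn1, Ltbp1 made up the 3 genes measured in each of the last 2 steps, and all 3 were called in both. Eln and Fbn1 were higher and Ltbp1 lower in the terminal sac than in the canalicular library, where 24.5% of all host genes were called (12.4% higher and 12.1% lower). All 3 were higher in the alveolar than in the terminal sac library, where 24.5% of all were called (12% higher and 12.4% lower). The Eln call in that last step rested on the circle of exons 17 to 22, and Ltbp1 reached the minimum through the alveolar library only. In both steps all Fbn1 reads were of circles with a repeat, or with few patterns in some library.

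The circle of Ltbp1 exons 6 to 7 had 9, 11, 4 and 3 reads in order of stage, with 581, 444, 259 and 454 non-junction reads and ratios of 0.030, 0.047, 0.030 and 0.013. Its share did not pass the threshold in any comparison, and was 3.27-fold lower in the alveolar library than in the pseudoglandular, with an interval of 0.816 to 18.8. In the step from canalicular to terminal sac it and the Eln circle of exons 8 to 11 were measured but not called. The 2 other measured circles, of Fbn1 exons 48 to 49 and Eln exons 19 to 22, were higher. Of all circRNAs 20.1% were called (8.94% higher and 11.2% lower). Both Eln circles had reads in only the terminal sac library of that pair. In the step from terminal sac to alveolar 3 of 4 measured circles were called, 2 higher and 1 lower, against 21.5% of all (10.5% higher and 11% lower). There the Eln circles of exons 17 to 22 and 8 to 11 had reads in only 1 library of the pair. Such circles could hardly have been measured without differing. Per non-junction read, the alveolar library had 0.471 times the pseudoglandular junction reads of Ltbp1 exons 6 to 7, with an interval of 0.138 to 1.62. Of the 6 pairs of libraries, the interval of that odds ratio excluded 1 in 1, the alveolar against the canalicular (0.298, 0.0893 to 0.992).

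The donor at the end of exon 7 held 33 reads of 3 Ltbp1 circles, 9, 11, 4 and 9 in order of stage, and the acceptor at exon 6 held 30. The circle of exons 15 to 20 had 4 alveolar and 4 pseudoglandular reads, with 417 and 596 non-junction reads and ratios of 0.019 and 0.013. The other 10 Ltbp1 circles were each listed in 1 library with 2 to 7 reads. Of these, 3 were of the intron type: their acceptor lay in an intron and their donor at the end of exon 3 or exon 7, and 1 of them had 7 pseudoglandular reads and a ratio of 0.063. The others were circles of exons 6 to 10, 12 to 23 and 28 to 33 (pseudoglandular), 15 to 22 and 33 to 35 (canalicular), and 5 to 7 and 9 to 20 (alveolar).

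Features that did not choose the circles differed among the 4 genes. Of the 33 member circles placed in a transcript, 8 (24.2%) had 6 or more repeated bases at their ends, against 293 of 11474 circRNAs in the series (2.55%). These 8 were 4 of Eln, 2 of Fbn1 and 2 of Fbn2, and none of the 9 placed Ltbp1 circles. The 293 include these 8, and the cut of 6 bases was set after values had been seen. How often exon ends of these genes that formed no circle share such repeats was not tested. The repeats may therefore not be a trait of the circles. A repeat of 14 bases or longer, as in Eln exons 17 to 22, was found in 13 circRNAs (0.113%). The Fbn1 circles of exons 16 to 32 and 44 to 49 had repeats of 12 and 11 bases, and the Fbn2 circle of exons 20 to 22 one of 8. The Fbn1 circle of exons 48 to 49 and the Fbn2 circle of exons 15 to 17, both with few patterns in some library, had repeats of 4 and 3.

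**Figure D5:**
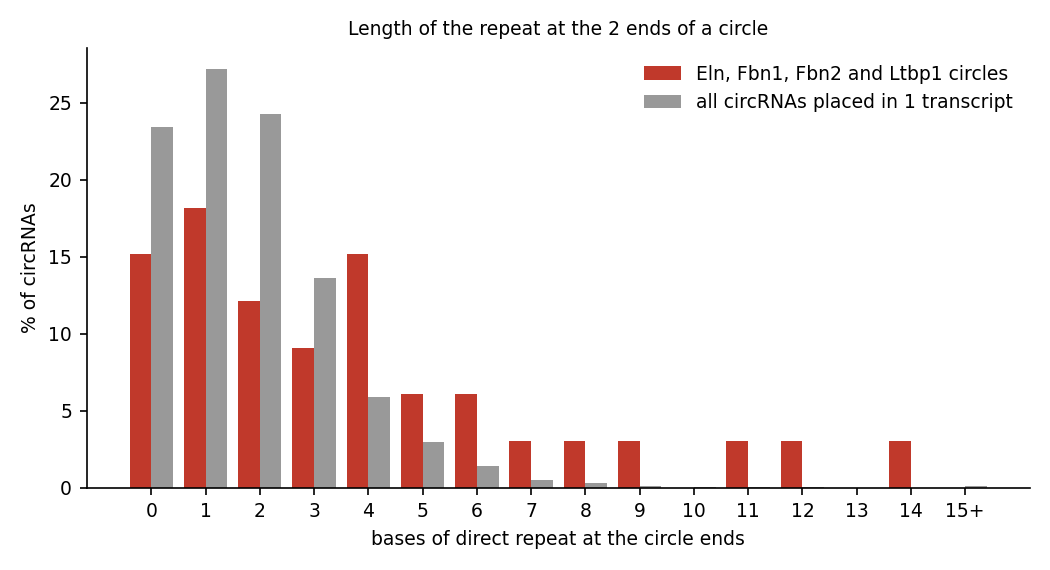
Length of the direct repeat at the 2 ends of a circle, in bases, as the percent of the 33 placed circles of the 4 genes (red bars) and of all 11474 placed circRNAs of the series (grey bars). The red bars reach 14 bases, the Eln circle of exons 17 to 22, and 24.2% of the member circles stand at 6 bases or more, against 2.55% of all.

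Few patterns means fewer than 1 for every 3 reads, with reads capped at 100, in a listing of 10 or more reads. A circle with such a listing in any library was marked in all of them. Of the Fbn1 circle of exons 48 to 49, only the alveolar listing met this. Its 8 canalicular and 28 terminal sac reads were counted as well. Circles with a repeat of 6 or more bases, or marked for few patterns, held 52, 8, 70 and 1709 member reads in order of stage. These were 57.1%, 23.5%, 81.4% and 98.3% of member reads, against 3.84%, 3.86%, 5.76% and 14.1% of all listed reads, members included. In the alveolar library members held 1709 of the 3996 such reads, and the Eln circle of exons 17 to 22 alone held 1646. Both thresholds were set after values had been seen. Without all circles that had such a repeat or few patterns, Eln had 3, 2, 12 and 13 reads and Fbn2 9, 4, 0 and 0. Fbn1 then had none in any library, and Ltbp1 all of its reads. The alveolar share of Eln was then 1.52-fold that of the terminal sac library (interval 0.638 to 3.64) and 4.45-fold that of the pseudoglandular (1.22 to 24.3). Whether these joins are circular RNA was not tested.

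Of the placed circles, 21 of the 33 members (63.6%) and 10070 of all 11474 (87.8%) had both ends at exon boundaries. Among these, the spliced length was a multiple of 3 for 16 of 21 members (76.2%) and for 39.1% of all. It was so for 3 of 3 Eln, 3 of 3 Fbn1, 7 of 7 Fbn2 and 3 of 8 Ltbp1 circles. How often exon runs of these genes that formed no circle have such lengths was not tested, so this may not be a trait of the circles. Of the 36 circles 32 (88.9%) were listed in 1 library, against 74.4% of all circRNAs.

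Other genes of the fibre and of TGF-beta signalling had fewer reads than Eln in the alveolar library. There the circle of exons 17 to 22 held 1646 of the 1665 Eln reads. Without it Eln had 19, fewer than the 51 of Smad4 but more than any other gene of the lists below. In the earlier libraries Smad4 had 79, 45 and 55 reads and Eln 3, 2 and 51. Of 19 genes for elastic fibre assembly other than the 4, 8 had a listed circRNA, with 27, 35, 14 and 21 reads in order of stage. Of 16 microfibril genes 9 did, with 22, 27, 53 and 34, and of 20 genes for TGF-beta ligands, activators and receptors 14 did, with 90, 70, 85 and 92. Between the alveolar and pseudoglandular libraries 2, 3 and 2 genes of these lists had enough reads, and none was called, where 29.6% of all hosts were. Their median log2 ratios were -1.12, -0.78 and 0.31, beside -0.12 for all hosts compared.

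In the step from canalicular to terminal sac, 1 of the 5 measured genes of these lists was called, near the 24.5% of all hosts. Vcan, which encodes the proteoglycan versican, had 4 terminal sac and 20 canalicular reads and was 5.79-fold lower in the terminal sac library (interval 1.94 to 23.3). Between the alveolar and terminal sac libraries 2 of 6 measured genes were called (24.5% of all hosts). Ltbp2, of the same family as Ltbp1, had 10 alveolar and 0 terminal sac reads and was at least 4.25-fold higher. Adamts17, a secreted protease linked to microfibrils, had 5 alveolar and 31 terminal sac reads and was 4.86-fold lower (1.87 to 16). Between the canalicular and pseudoglandular libraries 3 of 6 were called (20.1% of all hosts). Adamts17 had 20 canalicular and 0 pseudoglandular reads, at least 5.55-fold higher in the canalicular library. Thsd4, which encodes a fibrillin-binding protein, had 0 canalicular and 11 pseudoglandular reads (at least 4.41-fold lower). Smad4, the shared signal carrier of the TGF-beta family, had 45 canalicular and 79 pseudoglandular reads (2.11-fold lower, 1.44 to 3.11). In these pairs Ltbp2, Thsd4 and, from pseudoglandular to canalicular, Adamts17 had reads in only 1 library. They could hardly have been measured without differing.

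The host genes most like each of the 4 in how their reads were spread over the libraries were found among 1118 hosts with 20 or more reads. Likeness was the total variation distance over the 4 libraries, in which 0 is the same spread and 1 no overlap. For Eln, Crip2 (0, 0, 0 and 49 reads), Slc34a2 (0, 0, 0 and 27) and Sftpb (0, 0, 0 and 108) were tied at 0.0263. For Fbn1 they were Efnb2 (0.0344, with 5, 5, 17 and 33 reads), Slit2 (0.0511) and Arhgap26 (0.0585). For Fbn2 they were Sec61a1 (0.00672, with 22, 2, 0 and 0 reads), Gnas (0.0272) and Gpc6 (0.0636). For Ltbp1 they were Tnrc6b (0.0298, with 18, 12, 4 and 11 reads), Shroom2 (0.0332) and Ogdh (0.0460). With 4 libraries these are descriptions only.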

How the data were processed

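Total RNA was extracted with TRIzol, per the labels' protocols. Among the tools in the submitters' processing notes are BWA, HISAT2 2.0.5, HTSeq, StringTie and cutadapt, with no role stated, and the build is mm10. The deposited lists have the columns of CIRI, and filters beyond a lowest value of 2 junction reads are not given in the sources used here. Per the file headers, reads of both kinds are the authors' raw counts. The ratio is a fraction from the authors and was recomputed from the counts with 0 mismatches. The SM, MS and SMS patterns are the authors' deposited numbers. No strand was used, since the lists have no strand column.

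Members were all circRNAs whose deposited host identifier was 1 of the 4 genes. The members and gene lists were chosen with earlier results of these data known, and the thresholds for repeats and few patterns after values had been seen. Of the host identifiers, 4590 of 4647 are in GENCODE M21, which gave exons, lengths and joins. Ratios of shares of listed junction reads carry exact conditional binomial intervals, shares Clopper-Pearson intervals, and odds of junction to non-junction reads Woolf's interval with 0.5 added. An unlisted circle was set to 3 reads. Scripts were tested on simulated data. The main comparisons were the alveolar against the pseudoglandular library and each consecutive step. Circles were named if they had 10 or more reads in a library or were listed in more than 1, and the others are given briefly. For likeness the 3 nearest hosts were named. Alternatives were other scalings, read minimums and limits, merged ends, hosts from the annotation, and circles left out. Python 3.11.15, numpy 2.4.6, pandas 2.3.3, scipy 1.17.1 and matplotlib 3.10.9 were used.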

Additional observations from a re-analysis of the deposited data

How the results depend on the processing

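No paired analysis was possible because each stage has 1 library and no test was run. For the alveolar against the pseudoglandular library, Eln, Fbn1, Fbn2 and Ltbp1 kept their direction and their side of the threshold under each alternative that gave a value. Without repeat-end and few-pattern circles Fbn1 had no circle left and Fbn2 under 10 reads. Eln was 4.45-fold to 572-fold higher over these alternatives. Leaving out the Eln circle of exons 17 to 22 turned Eln between the alveolar and terminal sac libraries to 1.98-fold lower. That circle, chosen after seeing the data, held nearly all alveolar reads of Eln. With a minimum of 20 reads, which leaves fewer circRNAs to compare, 159 circRNAs were called between the alveolar and pseudoglandular libraries, against 276. At that minimum the 3 consecutive steps had, in order of stage, 132, 188 and 180 hosts and 100, 148 and 149 circRNAs called, against 227, 303 and 293 and 183, 243 and 241. Without repeat-end and few-pattern circles the calls for Eln between the alveolar and terminal sac libraries (1.52-fold higher) and for Fbn2 between the canalicular and pseudoglandular libraries (2.70-fold lower) were lost. Scaling by the median of ratios shifted log2 ratios by 0.12 between the alveolar and pseudoglandular libraries and by 0.16 between the alveolar and terminal sac libraries, and scaling by non-junction reads by 0.17 between the alveolar and pseudoglandular libraries and by 0.18 between the canalicular and pseudoglandular libraries. Between the alveolar and pseudoglandular libraries, hosts called were 159 higher and 141 lower without repeat-end and few-pattern circles, against 140 and 181, and circRNAs 132 and 133 by the median and 134 and 129 by non-junction reads, against 114 and 162. Hosts called between the alveolar and terminal sac libraries were 165 higher and 102 lower by the median, against 144 and 149, and circRNAs 140 and 92, against 118 and 123. Between the canalicular and pseudoglandular libraries, hosts were 169 higher and 100 lower by non-junction reads, against 100 and 127, and circRNAs 130 and 76, against 83 and 100. Most member circles had fewer than 10 reads, which limits what their absence from a list can show.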
